A study of Mus musculus with 10 samples.

Results

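The H3K27me3 landscape of normal long-term hematopoietic stem cells (LT-HSCs) from mouse fetal liver was described from 3 wild-type (WT) CUT&Tag libraries, which are 3 of the 10 samples of the series. They were chosen by their labels, as every WT LT-HSC library made with an antibody against H3K27me3, with earlier results of these data known. The cells came from E14.5 fetal livers of the WT embryos of an IκBα (Nfkbia) knockout line and were sorted as LSK CD48-CD150+ cells. The 3 knockout H3K27me3 libraries and the 4 IκBα libraries were not used here. Reads were 75 bp long in replicates 1 and 2 and 50 bp long in replicate 3. CUT&Tag tethers the Tn5 transposase to an antibody on chromatin, so that sequenced fragments pile up where the mark lies. Each library was made from a small number of sorted cells. The labels do not say how many embryos stand behind each library. The paper gives a total of WT embryos over independent experiments for this assay, but no number per library. No untreated or IgG background was subtracted by the peak caller.

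H3K27me3 is the trimethylated lysine of histone H3 that Polycomb repressive complex 2 (PRC2) deposits and that Polycomb repressive complex 1 can bind through its Cbx subunits. The mark is known for broad domains over silent developmental genes with CpG-rich promoters, such as the Hox clusters and the homeobox, T-box and Pax transcription factors of other tissues. Genes that a cell transcribes strongly usually lack it. Presence of a peak is a measure of the mark, not of transcription, and no expression was measured in these files.

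The 3 libraries differed much in yield. Peaks on the nuclear chromosomes numbered 4159, 6011 and 1044 in replicates 1, 2 and 3, and they covered 18.2, 27.8 and 1.89 Mb. The median peak was 3475, 3522 and 1726 bp wide, and its highest coverage was 9, 9 and 6 fragments. Each peak carries a total signal, in which coverage is added up base by base along the peak. It was not scaled to depth, so peaks were ranked within their own library. Read length and yield cannot be told apart for replicate 3. The absence of a peak there does not show that the mark was absent. Total signal largely followed peak width, with Spearman's rho of 0.90, 0.90 and 0.64 over the peaks of the 3 libraries. A high rank therefore mostly means a broad domain.

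Peaks of replicates 1 and 2 overlapped by at least 1 bp in 3211 merged regions, called shared regions below, which spanned 22.6 Mb or 0.828% of the genome. Of these regions 813 (25.3%, exact 95% binomial interval 23.8 to 26.9, counting error only) also held a peak of replicate 3, and 2398 did not. The interval treats regions as independent, although all come from the same libraries. The share with a replicate 3 peak was 2.27% when a reciprocal overlap of 50% was required and 50.4% when each library gave the same number of top peaks. Replicate 3 added little of its own, as 880 of its 1044 peaks (84.3%) overlapped a peak in both of the other libraries and 30 (2.87%) overlapped neither. Of the replicate 1 peaks 87.2% had a partner in replicate 2, and of the larger replicate 2 set 58.0% had one in replicate 1. Among the strongest replicate 1 peaks, as many as replicate 3 has in all, 1038 of 1045 had a partner in replicate 2 and 442 had one in replicate 3. Of the lowest replicate 2 peaks, 213 of 1041 had a partner in replicate 1. Over the 3211 regions the summed total signal of the 2 deeper libraries had a Spearman's rho of 0.72, whereas mean coverage per base had 0.39. For the 813 regions with a replicate 3 peak, rho between total signal in replicates 1 and 3 was 0.24. These correlations run across regions, which share the libraries and their depth.

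**Figure D1:**
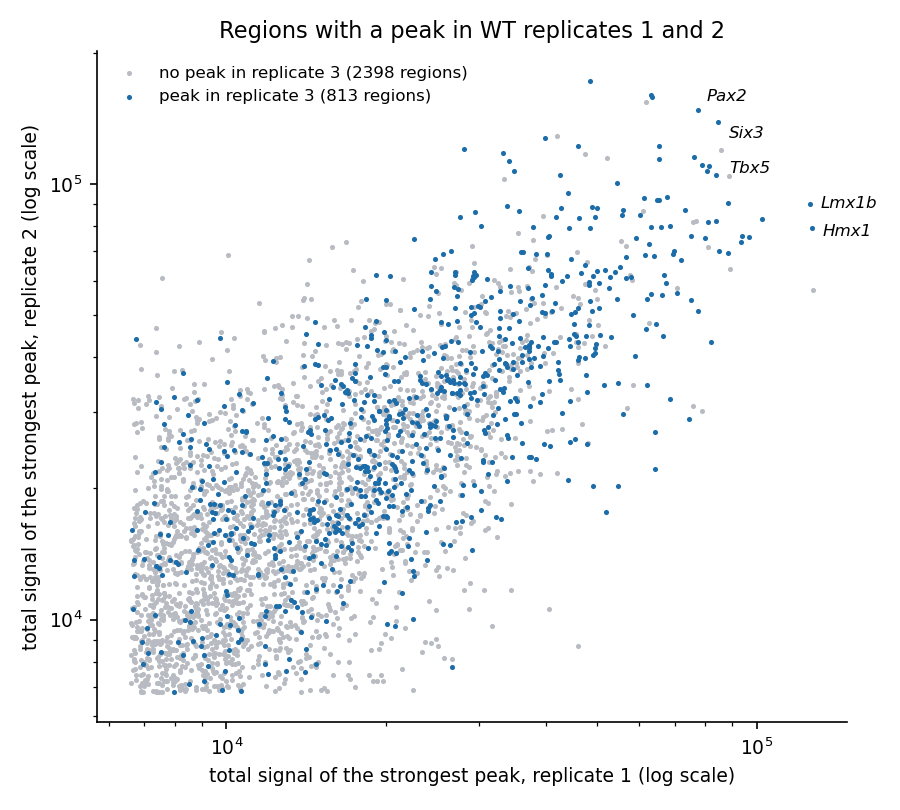
Total signal of the strongest peak in each region shared by WT replicates 1 and 2 (fragment coverage summed over the peak, log axes, 1 point per region), coloured by whether replicate 3 also had a peak. The 813 regions with a replicate 3 peak lie throughout the cloud but are most frequent at its upper end, and 5 of the 25 best-ranked regions are named.

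The 25 regions with the best ranks in both deeper libraries were 15106 to 41788 bp wide (median 22633 bp), and 22 of them overlapped the promoter of a protein-coding gene, which here reaches from 5 kb before an annotated start to 100 bp past it. A listed developmental transcription factor promoter lay in 13 of the 25. A peak of replicate 3 was present in 21 of them, and its peaks covered between 1432 and 7358 bp of each region, with a median of 2597 bp.

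In total 4 T-box genes were among these 25. T-box factors direct limb, heart and pharyngeal development. The domain of Tbx5, the forelimb and heart factor, spanned chr5:119816896-119846040 (GRCm38) and ranked 12 in replicate 1 and 12 in replicate 2, with a total signal of 85596 and 119781. It had no peak in replicate 3. Tbx4, the hindlimb counterpart, ranked 21, 22 and 57 in replicates 1, 2 and 3, with a total signal of 80560, 106846 and 7662. Tbx15 ranked 24, 19 and 326, and Tbx1, which acts in the pharyngeal apparatus, ranked 34, 40 and 193. Tbx4 and Tbx1 were thus called in every library, while Tbx5 was high in the 2 deeper libraries and not called in the shallow one.

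Homeobox and paired-box genes formed the largest group. Six3, a forebrain and eye factor, had a 31310 bp domain that ranked 14, 6 and 218 with a total signal of 84625 and 138830 in the deeper libraries. Lmx1b, a LIM homeobox factor of limb and midbrain, ranked 3, 34 and 30. Lhx3, needed in pituitary and motor neurons, ranked 19, 54 and 360. Hmx1 ranked 2, 62 and 782. Lbx1, a factor of migrating muscle precursors, ranked 42, 29 and 8 and was the only one of the 25 regions that held one of the 25 strongest replicate 3 peaks. Vax2, an eye factor, ranked 5, 68 and 306. Pax2, a kidney and hindbrain factor, ranked 25, 5 and 75 with a total signal of 77668 and 148014. A domain 4307 bp from the start of Nkx3-2, a skeletal factor, ranked 30 and 55 and had no replicate 3 peak.

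Further members of the 25 were the neural basic helix-loop-helix genes Sim2 (ranks 9 and 25, with no replicate 3 peak in this region, although a second Sim2 promoter region held one of rank 515) and Neurod2 (28, 15 and 961), the mesoderm forkhead genes Foxf1 (4, 51 and 450) and Foxf2 (15, 52 and 27), and Dmrta2 (27 and 53, none in replicate 3). These ranks are of regions. In those of Six3, Hmx1, Neurod2, Foxf2, Cryba2 and Scarf2 the replicate 3 peak lay outside the promoter of the gene, which was therefore not called in replicate 3. Not every broad domain lay over a transcription factor. Scn4b, which encodes a sodium channel beta subunit, had the widest region of all, 41788 bp, and ranked 18, 20 and 377. Grin1, the obligate subunit of NMDA glutamate receptors, ranked 11, 33 and 593. Cryba2 (a lens crystallin), Bcar1 (an adaptor of integrin signalling), Scarf2 and the neighbouring promoters of Gp1bb and Sept5 completed the promoter regions, with ranks in replicate 1 of 32, 6, 47 and 41. Gp1bb, a platelet glycoprotein subunit, shares its domain with Sept5, so the 2 promoters cannot be told apart by this peak.

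The sequences before the starts of 3 marked and 3 unmarked genes are shown because CpG-rich promoters are a known setting of H3K27me3. Each run holds the 250 bases before the start, read 5′ to 3′ on the gene's strand from the RefSeq promoter table (GRCm38.p6), with every CG in capitals. Foxf2 (chr13:31625566-31625815, plus strand), Grin1 (chr2:25319188-25319437, minus) and Tbx1 (chr16:18590672-18590921, minus) lie in the 25 best-ranked domains. The blood regulators Gata2 (chr6:88193641-88193890, plus) and Myb (chr10:21160985-21161234, minus), and Slamf1 (chr1:171766882-171767131, plus), which encodes the CD150 antigen used to sort these cells, had no promoter peak in any of the 3 libraries.
Foxf2: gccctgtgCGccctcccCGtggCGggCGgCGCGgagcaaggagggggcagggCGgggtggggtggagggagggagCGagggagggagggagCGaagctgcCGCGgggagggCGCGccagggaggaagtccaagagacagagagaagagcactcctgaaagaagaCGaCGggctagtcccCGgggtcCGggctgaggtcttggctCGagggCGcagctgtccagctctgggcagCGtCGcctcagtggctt
Grin1: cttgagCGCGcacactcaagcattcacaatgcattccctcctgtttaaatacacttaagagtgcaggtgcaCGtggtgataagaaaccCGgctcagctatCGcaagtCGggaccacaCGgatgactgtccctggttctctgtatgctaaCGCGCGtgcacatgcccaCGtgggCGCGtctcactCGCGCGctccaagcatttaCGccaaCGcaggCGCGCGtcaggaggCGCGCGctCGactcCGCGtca
Tbx1: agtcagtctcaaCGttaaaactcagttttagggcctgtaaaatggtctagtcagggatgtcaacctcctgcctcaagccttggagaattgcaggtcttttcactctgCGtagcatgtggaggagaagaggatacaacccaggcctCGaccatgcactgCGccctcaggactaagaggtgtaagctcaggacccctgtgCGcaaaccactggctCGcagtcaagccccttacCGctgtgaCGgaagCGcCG
Gata2: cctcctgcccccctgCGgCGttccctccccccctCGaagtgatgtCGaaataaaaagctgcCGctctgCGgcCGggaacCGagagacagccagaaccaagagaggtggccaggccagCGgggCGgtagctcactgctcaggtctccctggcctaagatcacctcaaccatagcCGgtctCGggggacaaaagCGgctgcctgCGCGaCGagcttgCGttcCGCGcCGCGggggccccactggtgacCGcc
Myb: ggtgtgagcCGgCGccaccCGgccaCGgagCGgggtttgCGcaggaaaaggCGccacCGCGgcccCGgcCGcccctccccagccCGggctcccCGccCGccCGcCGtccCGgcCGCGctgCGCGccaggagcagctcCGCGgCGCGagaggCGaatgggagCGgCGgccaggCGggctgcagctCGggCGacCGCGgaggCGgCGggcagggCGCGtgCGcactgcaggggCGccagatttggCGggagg
Slamf1: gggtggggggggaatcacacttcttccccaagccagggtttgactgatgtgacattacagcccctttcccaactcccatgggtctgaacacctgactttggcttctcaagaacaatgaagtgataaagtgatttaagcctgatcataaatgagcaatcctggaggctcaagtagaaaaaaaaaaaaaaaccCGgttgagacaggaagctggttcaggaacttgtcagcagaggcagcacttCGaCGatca

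These windows held 21, 27 and 10 CG pairs in Foxf2, Grin1 and Tbx1, and 22, 40 and 3 in Gata2, Myb and Slamf1. Across 32851 promoter windows of the same length the median was 6, and 92.1% held at least 1 CG (the motif CG reads the same on both strands). At least as many CG as in Myb were found in 1.31% of the windows, as in Grin1 in 8.56%, as in Gata2 in 14.8%, as in Foxf2 in 16.3%, as in Tbx1 in 37.8% and as in Slamf1 in 71.0%. The marked and unmarked examples overlapped in CG number, and the highest of the 6 belonged to Myb, which was not marked.

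Across all 21938 protein-coding genes, 2136 (9.74%) had a promoter peak in both replicates 1 and 2, and 660 (3.01%) had one in all 3 libraries. In the single libraries 10.6%, 12.9% and 3.46% of genes had one. These shares are the background for every list below. Promoter calls were most frequent in the middle of the CpG scale. This scale was the observed/expected CpG ratio in 1 kb around the outermost annotated start of a gene. A call could come from any annotated start, so the ratio was not always that of the promoter that met the peak. Of the genes with a ratio under 0.1, 1.24% were called in replicates 1 and 2. The share was highest, 17.6%, for ratios from 0.5 to 0.6 and was 7.18% for ratios of 1.0 and above. Each library followed this course, with its highest share at 0.5 to 0.6 in replicates 1 and 2 (19.3% and 22.3%) and at 0.6 to 0.7 in replicate 3 (6.77%). Genes were classed by this outermost start. Of 9738 CpG-rich genes 1222 (12.5%) were called, of 3415 intermediate genes 551 (16.1%) and of 8785 CpG-poor genes 363 (4.13%). With all 3 libraries required the order of the first 2 classes was reversed, with 4.44% of CpG-rich and 4.10% of intermediate genes called. CpG-rich genes thus made up 57.2% of the called genes, while most CpG-rich genes had no promoter peak. Whole regions lay above the genome in CpG content, with a median ratio of 0.36 against 0.19 for the genome, and 93.9% of them exceeded the genome value.

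**Figure D2:**
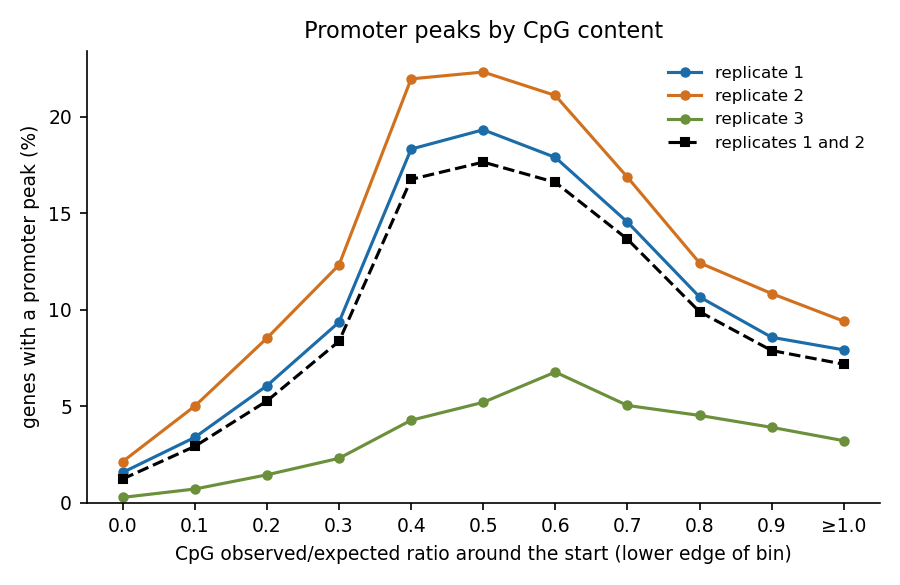
Share of protein-coding genes with a promoter peak at any annotated start (%), for each WT library and for replicates 1 and 2 together. Genes are in bins of 0.1 by the observed/expected CpG ratio around their outermost annotated start. All lines are highest in the middle bins, and the replicates 1 and 2 line reaches 17.6% in the bin that starts at 0.5 against 7.18% in the last bin.

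Gene classes were compared with lists of gene families and pathways, which were written with earlier results of these data known. Developmental transcription factors were called in 228 of 317 genes (71.9%) in replicates 1 and 2, and in 97 (30.6%) in all 3 libraries. Per library the share was 73.5%, 76.7% and 31.5%. They made up 10.7% of all called genes, but 37 of the 100 best-ranked called genes, 83 of the best 250 and 127 of the best 500. Their domains were wide. The promoter regions of this class had a median width of 10885 bp (interquartile range 6794 to 16410 bp), against 5911 bp over all promoter regions, and 43.5% of them reached 12 kb, against 12.6% of all. A replicate 3 peak lay in 50.6% of them, against 32.4% of all promoter regions.

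Within this class the families were not alike. All 12 LIM homeobox genes and all 6 Irx genes were called in replicates 1 and 2, as were 51 of 54 other homeobox genes, 8 of 9 Pax genes, 11 of 14 Nkx genes, 12 of 16 T-box genes and 12 of 19 Sox genes. Forkhead genes (22 of 44) and Prdm genes (7 of 14) were called less completely. The uncalled forkhead genes included widely expressed members such as Foxo1, Foxo3 and Foxk1 and tissue-specific ones such as Foxa3, Foxc2 and Foxn1. Among the LIM homeobox genes, Lhx2, a forebrain and eye factor, ranked 56, 3 and 275, and Lhx6, an interneuron factor, ranked 212, 8 and 366. Irx genes lay higher in some libraries than in others. Irx3 ranked 205 and 89, while Irx4 ranked 4085 in replicate 1 and 36 in replicate 2, and Irx5 ranked 3262, 122 and 4. In the GATA family Gata3, Gata4, Gata5 and Gata6 were called in both deeper libraries, with ranks in replicates 1 and 2 of 194 and 239, 262 and 127, 103 and 287, and 357 and 262. Gata1 and Gata2, the erythroid and stem cell members, had no promoter peak in any library.

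**Figure D3:**
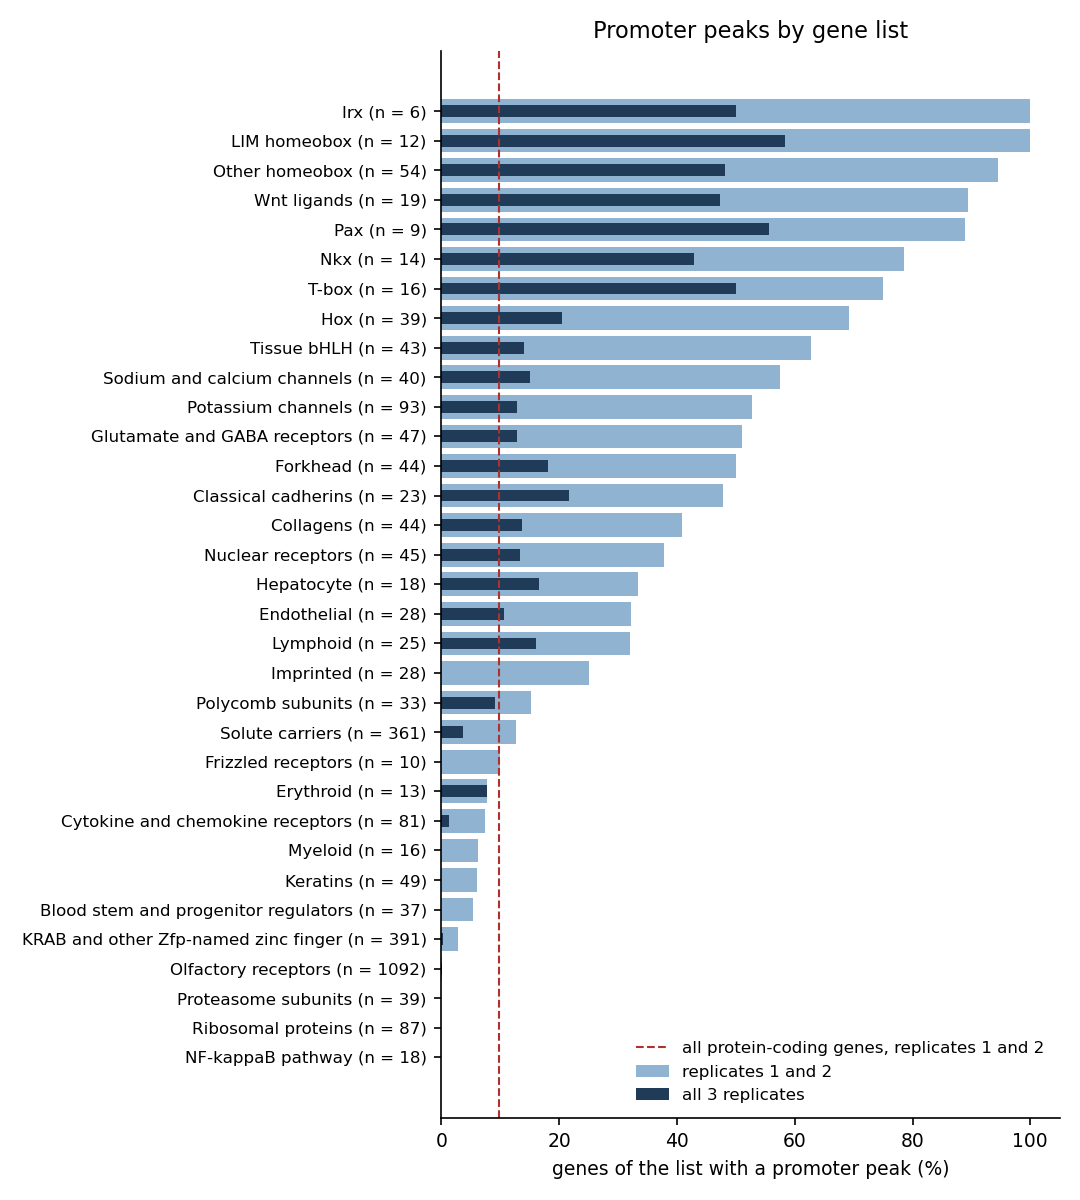
Share of genes with a promoter peak (%) for 33 gene lists, in WT replicates 1 and 2 (light bars) and in all 3 replicates (dark bars), with the number of matched genes beside each name. The dashed line marks 9.74%, the share of all protein-coding genes in replicates 1 and 2. LIM homeobox and Irx genes reach 100%, and ribosomal protein, proteasome and NF-kappaB genes are at 0%. The NF-kappaB list has only 18 genes, in which the background share would give few calls.

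The 4 Hox clusters, whose genes set position along the body axis, were marked to different extents. All 9 Hoxc genes and all 9 Hoxd genes had a promoter peak in replicates 1 and 2, against 4 of 11 Hoxa genes and 5 of 10 Hoxb genes. In Hoxa the called genes included Hoxa10, Hoxa11 and Hoxa13 at the posterior end of the cluster. Hoxa3, Hoxa4, Hoxa5, Hoxa6 and Hoxa7 had no promoter peak in any library. Hoxa9, a self-renewal gene of blood progenitors, had one in replicate 1 alone (rank 1604). Hoxb13, the most posterior Hoxb gene, ranked 10 and 258. In Hoxb the called genes were Hoxb1, Hoxb5, Hoxb8, Hoxb9 and Hoxb13, and Hoxb2, Hoxb3 and Hoxb4 had no promoter peak in any library. Hoxb6 and Hoxb7 had one in replicates 2 and 3 only. Neighbouring Hox promoters often share a peak, as for Hoxc5 and Hoxc10 (ranks 145, 10 and 597 for both), so these counts are not counts of separate domains.

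Replicate 3 ordered the clusters differently. Peaks covered 23.1%, 19.5% and 10.7% of Hoxa in replicates 1, 2 and 3, and 19.0%, 34.0% and 3.23% of Hoxb. In the deeper libraries 66.9% and 78.3% of Hoxc and 56.1% and 80.5% of Hoxd were covered. Replicate 3 covered only 1.26% of Hoxc, with 1 peak, and 3.83% of Hoxd, with 2 peaks. In replicates 1 and 2 Hoxc and Hoxd had the larger covered share in each library, and in replicate 3 Hoxa had the largest.

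**Figure D4:**
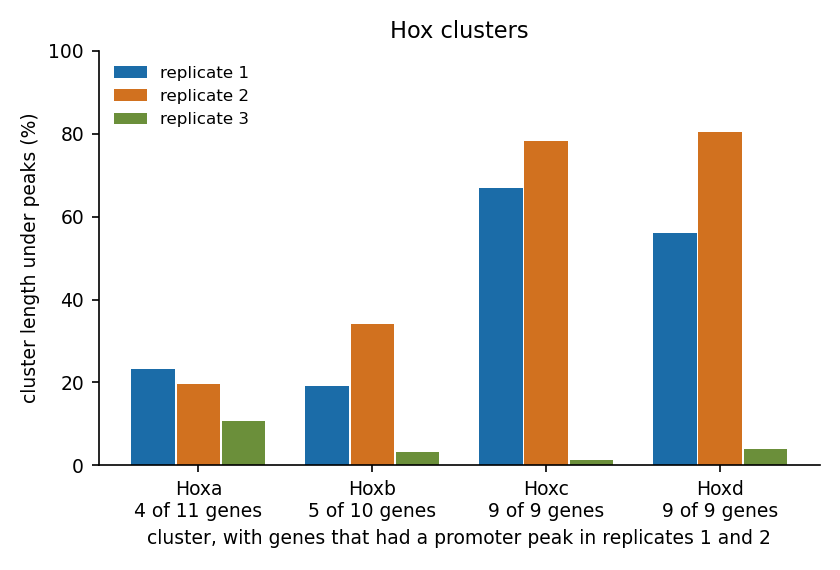
Share of each Hox cluster's length under called peaks (%) in the 3 WT libraries (1 bar per library, no error bars since each bar is a single library). Hoxc and Hoxd reach 56.1% to 80.5% in replicates 1 and 2, Hoxa and Hoxb 19.0% to 34.0%, and replicate 3 lies at 10.7% or below in every cluster.

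Among signalling genes, Wnt ligands had the largest called share. Of the 19 Wnt ligands 17 (89.5%) were called in replicates 1 and 2, and 9 of them in all 3 libraries. Wnt1, a midbrain and neural crest ligand, ranked 62 and 197, Wnt7b 151 and 86, and Wnt3a 161, 250 and 481. Wnt5b and Wnt8a were the uncalled ligands. Of the 10 Frizzled receptors, to which these ligands bind, 1 was called in both replicates 1 and 2, Fzd10 (319 and 1464), which is the background share, and 4 had a peak in replicate 2. The 3 hedgehog ligands Ihh, Shh and Dhh were called in replicates 1 and 2, with ranks of 101 and 150, 125 and 266, and 497 and 1173. Their receptor Ptch1 was lower (1393 and 1675), and the signal transducer Smo had no call. BMP, GDF and TGF-beta ligands were called in 13 of 32 genes, led by Gdf6, a joint and eye ligand, which ranked 37, 179 and 2. Tgfb1, Tgfb2 and Tgfb3 were not called. FGF ligands were called in 11 of 22, led by Fgf8 (100 and 319), and retinoic acid genes in 9 of 19, led by Stra6, the retinol transporter (176 and 224). None of the 18 NF-kappaB pathway genes had a promoter peak in any library, Nfkbia among them. At the background of 9.74% a list of this size would hold few calls, so the count does not set this pathway apart.

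Lists of ion channels, receptors, adhesion molecules and transporters differed in called share. Sodium and calcium channel genes were called in 23 of 40 (57.5%), potassium channel genes in 49 of 93 (52.7%), and glutamate and GABA receptor genes in 24 of 47 (51.1%). Kcnh3, a voltage-gated potassium channel gene, ranked 195, 124 and 503. Grm4, a metabotropic glutamate receptor, ranked 124, 149 and 113. Classical cadherins were called in 11 of 23, with Cdh22 at ranks 95, 2 and 353. Collagens were called in 18 of 44, with Col2a1, the cartilage collagen, carrying a total signal of 46730, 62393 and 7344. Claudins were called in 5 of 23, led by Cldn6 (995 and 771), and protocadherins in 8 of 68 (11.8%), near the background. As a class these effector genes were called in 210 of 796 (26.4%), with a median region width of 5861 bp, narrower than the 10885 bp of the developmental factors. Solute carriers (46 of 361, 12.7%) lay near the background. Their best-ranked member was Slc18a3, the vesicular acetylcholine transporter (75 and 136), whose region also overlapped the promoter of Chat, the acetylcholine-synthesising enzyme.

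Large receptor families had almost no peaks. Of 1092 olfactory receptor genes 2 were called in replicates 1 and 2 (Olfr94 and Olfr222), and of 326 vomeronasal receptor genes and 57 keratin-associated protein genes none was. Of 49 keratin genes 7 had a promoter peak in replicate 1 and 8 in replicate 2, and Krt8, Krt19 and Krt71 had one in both. Of 391 Zfp-named zinc finger genes 11 (2.81%) were called in both. Few promoters in the receptor families were CpG-rich, with 0 of 1092 and 1 of 326. In contrast, 186 of the 391 zinc finger promoters were CpG-rich, of which 7 were called. The authors discarded reads that mapped to several places, so near-identical gene copies in these families could be under-called, which was not tested.

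Lists of genes known for their roles in every cell, or in blood stem cells, were read against the background of 9.74%. No ribosomal protein (87), proteasome (39) or complex I gene (36) was called in both replicates 1 and 2. The list of 37 blood stem and progenitor regulators had 2 called genes (5.41%, not far from the background for a list of this size), Zbtb16 (ranks 1054 and 1724) and Erg, an Ets factor of stem cells and endothelium (1467 and 2740). Neither had a replicate 3 peak. Runx1, Tal1, Lmo2, Meis1, Mecom, Hlf, Kit and Cxcr4 had no promoter peak in any library. The class of housekeeping and active blood genes joined the ribosomal, proteasome, complex I, spliceosome, blood regulator and Polycomb lists. A list of 67 replication-dependent histone genes was not part of it and had no call. In the class 8 of 257 genes (3.11%) were called, below the background of 9.74%. Of these 8 genes 5 remained when the promoter was narrowed to 1 kb either side of a start. U2af2, a splicing factor, was called through a region that also overlapped the promoters of Ccdc106 and Zfp580, and it was not called with the narrower promoter. The Polycomb genes in this class were called in 5 of 33. Cbx8 ranked 49, 9 and 310 with a total signal of 65402, 122197 and 4985, Pcgf1 594 and 340, Epop 1138, 706 and 364, and Cbx2 2510 and 3730. Cbx8 thus stood among the 50 best peaks of both deeper libraries. The Pcgf1 region also overlapped the promoter of the homeobox gene Tlx2, and Pcgf1 was not called with the 1 kb promoter.

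The cell type label was set against marker genes. Of 15 LT-HSC markers none had a promoter peak in any library. No erythroid (8) or megakaryocyte marker (5) of this short panel was called in both replicates 1 and 2, and of 8 myeloid markers only Cebpa was (1174 and 670). At the background of 9.74% panels of these sizes would hold few calls, so these counts do not bear on the cell label. The longer lineage lists had 1 of 13 erythroid genes called, Ank1, an ankyrin of the red cell membrane (408, 981 and 880), and 1 of 11 megakaryocyte genes, Gp1bb (41, 57 and 202). Hba-a1, an alpha globin gene, had a peak in replicate 2 alone (4263). The mark is not expression, and 6 of the 15 LT-HSC markers were CpG-poor at their outermost start, so absence of a peak does not separate these cell types. Lymphoid markers were called in 5 of 10. In the longer lists the lymphoid (8 of 25), hepatocyte (6 of 18) and endothelial (9 of 28) shares were alike, at 32.0%, 33.3% and 32.1%. Pax5, the B cell identity factor, ranked 89, 27 and 44 with a total signal of 54510, 100676 and 8064. Gata3 ranked 194 and 239, Bcl11b 276, 1774 and 798, Ebf1 1720, 1946 and 820, and Tcf7 2556 and 2201. The effector genes Cd3e, Rag1, Rag2 and Il7r had no promoter peak. Endothelial markers were called in 2 of 8 (Sox17 and Sox7) and hepatoblast markers in 1 of 8 (Foxa2), whereas Alb, Afp, Cdh5 and Pecam1 had no promoter peak in any library, and Dlk1 (4570) and Kdr (5166) had one in replicate 2 alone. Stromal markers were called in 5 of 6, and Pdgfra ranked 253, 463 and 739.

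Cell cycle inhibitors and imprinted genes were marked in part. Cdkn2a ranked 1390 and 403, Cdkn2b 3687, 416 and 313, Cdkn2c 3077, 1959 and 317, and Cdkn1a 3612 and 5728. Cdkn1b and Cdkn1c had no call. Among 28 imprinted genes 7 were called in replicates 1 and 2 and none in all 3. Dio3, a thyroid hormone deiodinase, ranked 68 and 42. The others were Ascl2 (495 and 1080), Kcnq1 (715 and 1120), Phlda2 (2464 and 2419), Igf2 (2777 and 3143), Grb10 (2830 and 4467) and Gnas (3340 and 5776).

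Outside promoters, shared regions lay in gene bodies (426 regions, 13.3%) or between genes (539, 16.8%), with 2246 (69.9%) at protein-coding promoters. Of the single peaks of replicates 1, 2 and 3, 61.0%, 52.1% and 72.8% were at such promoters. The share of the genome in promoter windows was not computed, so these shares do not measure enrichment. Of the 965 non-promoter regions 203 overlapped the promoter of a non-coding gene. Of the 5 best-ranked non-promoter regions 4 held microRNA genes. The highest, chr6:30166859-30187006, ranked 16, 23 and 92 with a total signal of 83668 and 105044 in the deeper libraries. It lay 50744 bp from the nearest coding start, that of Nrf1, and held Mir183 and Mir96 and the promoter of Mir182, which form a microRNA cluster of sensory cells. The region at chr7:79493690-79523074 (total signal 65548, 91941 and 6309) held Mir9-3. The one at chr3:88196434-88222591 (ranks 50, 17 and 1011) held Mir9-1, and the one at chr2:180877675-180897825 (59, 60 and 700) held Mir124a-3. Mir9 and Mir124 are microRNAs of neurons. In all, 68 of 2202 annotated microRNA genes (3.09%) had a promoter peak in replicates 1 and 2, and 43 of the 68 had an entry in the RefSeq microRNA table. The mature products of Mir183, Mir96, Mir182, Mir9-1 and Mir9-3, whose promoters or genes lie in the regions just named, follow (GRCm38.p6, 5′ to 3′), with the seed, bases 2 to 8, in capitals, since the seed sets which transcripts a microRNA binds.
miR-183-5p: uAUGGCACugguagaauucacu
miR-96-5p: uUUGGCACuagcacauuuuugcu
miR-182-5p: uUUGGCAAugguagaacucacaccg
miR-9-5p: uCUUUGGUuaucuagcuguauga

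The 3 products of the Mir183 cluster have 3 different seeds, whereas Mir9-1 and Mir9-3, on chromosomes 3 and 7, encode the same miR-9-5p. The other non-promoter regions among the 10 best, besides that beside Nkx3-2, lay 21192 bp from Spry4 (ranks 85, 106 and 764), 63992 bp from Irs2 (44, 126 and 1031) and 21527 bp from Neurog1 (133 and 156) as the nearest coding starts, within Gm20388 and 127343 bp from Irf8 (74 and 146), and within Lmx1b (total signal 47399, 65125 and 4039). The regions by Neurog1 and in Gm20388 had no replicate 3 peak. Intergenic regions over 50 kb from any coding start numbered 197 of 539.

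Replicate 3 peaks followed rank and promoters. When the shared regions were divided into 10 groups of about equal size by rank, a replicate 3 peak was present in 63.7% of the first group and 6.54% of the last. Promoter overlap went from 84.5% to 51.1% and median width from 14135 to 3630 bp over the same groups. A replicate 3 peak was present in 32.4% of promoter regions, 9.62% of gene body regions and 8.16% of intergenic regions. Where it was present it covered a median of 24.4% of the region. The strongest coverage lay within 1 kb of a coding start in 82.4% of its promoter peaks, against 58.8% and 56.4% in replicates 1 and 2. Its 25 strongest peaks all lay in shared regions. They included Gdf6 (rank 2), Pcdh1 (3), Irx5 (4), Pdgfa (6) and the epithelial repressor Hic1 (9), and the strongest lay within Zfp316. Of the 344 shared regions of at least 12 kb 196 had a replicate 3 peak and the rest had none. After Tbx5, Sim2, Dmrta2 and the domain beside Nkx3-2, the best-ranked of these were at Gfy with Pth2 (20 and 80), En2 (65 and 4), Dio3 (68 and 42), a region at 1 of several Speg starts (8 and 111), Unc5a (80 and 79) and Cntn2 (84 and 74). Of the 30 replicate 3 peaks without a partner 27 were at promoters. The best-ranked were at Iqsec3 (rank 81, total signal 7105), Plekhg6 (137), a start of Shank1 (141), a gene with another peak of rank 7, and Cdk4 with March9 (313).

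**Figure D5:**
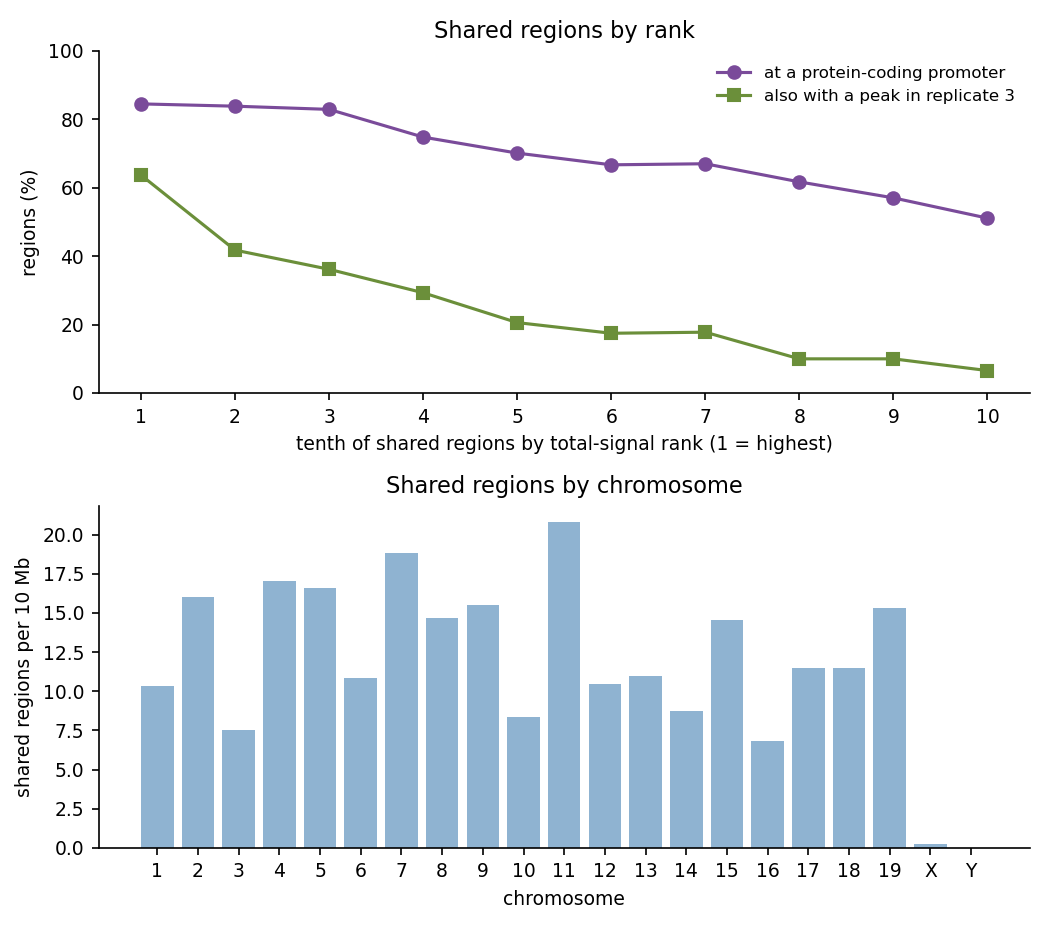
Upper plot: share of shared regions (%) at a protein-coding promoter and with a replicate 3 peak, in 10 groups by total-signal rank, from 84.5% to 51.1% and from 63.7% to 6.54%. Lower plot: shared regions per 10 Mb on each chromosome, from 6.82 to 20.8 on the autosomes and 0.234 on X, with none on Y.

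Ranking by mean coverage gave other regions. The 10 best by mean signal per base were between 1614 and 12971 bp wide, and only 1 of the 25 best by total signal stayed among the 25. By mean coverage, the best-ranked region was intergenic, 26489 bp from the start of Flt1, the VEGF receptor gene, with 6.84 and 6.71 fragments per base in replicates 1 and 2. Mmp15, a membrane-anchored matrix metalloproteinase (6.17 and 6.63), and C1qtnf4 (5.37 and 5.56) were among the next. Bmp6 (5.34 and 5.59) and Phox2a, an autonomic neuron factor (5.19 and 5.98), were also among the 10. The 25 domains best by total signal had 3.76 to 5.16 fragments per base in replicate 1.

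Along the chromosomes the mark was uneven. No base was covered in both replicates 1 and 2 in 1474 of 2674 windows of 1 Mb (55.1%), while the 267 richest windows held 61.3% of all such bases. The richest window, chr5:35000001-36000000, had 83.7 kb covered in both libraries (90.6, 187 and 6.48 kb in replicates 1, 2 and 3) and 6 of its 12 coding genes called, Hmx1 and Adra2c among them. Next were chr7:79000001-80000000 (82.7 kb, with Acan, Mesp1 and Rhcg), chr2:180000001-181000000 (80.8 kb, with Gata5, Bhlhe23 and Hrh3) and chr19:44000001-45000000 (80.5 kb, with Pax2 and Wnt8b). The window chr1:74000001-75000000 (80.2 kb) held Ihh, Wnt6 and Wnt10a, chr8:121000001-122000000 (78.1 kb) held Foxf1 and Foxl1, and chr17:85000001-86000000 (72.6 kb) held Six3 and Six2. The Hoxc cluster lay across chr15:102000001-103000000 (75.9 kb) and chr15:103000001-104000000 (73.6 kb), and chr2:165000001-166000000 (71.2 kb) held Cdh22.

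On the autosomes there were 6.82 (chromosome 16) to 20.8 (chromosome 11) shared regions per 10 Mb. This order had a Spearman's rho of 0.78 with coding genes per Mb over 19 autosomes, as a description. The X chromosome stood apart, with 18, 22 and 0 peaks in replicates 1, 2 and 3 and 0.234 shared regions per 10 Mb. Peaks covered 0.0322% and 0.0411% of X in replicates 1 and 2, against at least 0.395% and 0.536% of any autosome. Of its 948 coding genes 5 (0.527%) were called, against 7.77% to 13.2% on the autosomes, and of its 226 CpG-rich promoters 0.442%. Among them were the developmental factors Sox3 (ranks 1844 and 5417) and Cdx4 (3044 and 3636), and the protocadherin gene Pcdh19 (3483 and 5941). The longest stretch of X without a base covered in both libraries was chrX:104000001-170000000 (66 Mb) and held 333 coding genes, 86 of them CpG-rich. The longest such autosomal stretch was 17 Mb on chromosome 16, with 25 coding genes. No peak was called on Y. The sex of the embryos behind each library is not given in the sources used here, and its part in the X and Y counts was not tested.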

How the data were processed

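CUT&Tag reads of 3 WT LT-HSC H3K27me3 libraries were trimmed (Trim Galore 0.6.6), aligned to GRCm38 (Bowtie2 2.4.4), freed of multi-mapped reads and duplicates, and turned into peaks per library (SEACR 1.3, stringent, no IgG, the top 0.5% kept) by the authors. Blacklisted regions had been removed, by a list not given in the sources used here. A weaker enriched block therefore counts as no peak. The values used are the total and maximum signal of each peak as deposited, in units of fragment coverage and not scaled to depth. Read totals were not used here. Coordinates are 1-based. 0 nuclear peaks lay beyond a chromosome end of GRCm38.p6. Mitochondrial peaks were left out of the regions.

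Peaks of replicates 1 and 2 overlapping by at least 1 bp were merged. A region's rank is that of its strongest peak, and regions were ordered by the poorer rank as a share of the library's peaks. Gene models were GENCODE M21. A gene was called when its promoter met a peak in both libraries, not always the same peak. CpG-rich meant a CpG ratio of at least 0.6 and GC of at least 50%, and CpG-poor a ratio under 0.4. Both were taken at the outermost annotated start of a gene, while promoter calls used every annotated start. Python 3.11.15, numpy 2.4.6, pandas 2.3.3 and scipy 1.17.1 were used, and the overlap code was tested on simulated data. No test between groups was made.

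Named were the 25 best regions, the 10 best outside promoters, absent from replicate 3, present only there, or by mean signal, the up to 4 best-ranked called genes of a list (every called gene up to 10 where under 15% were called, in practice a selection), the 10 richest 1 Mb windows, and list members without a peak or with ranks that differed between libraries, chosen after their values were seen. The gene lists and the libraries were chosen with earlier results of these data known. Overlap, promoter, threshold, ranking and library choices were varied. Some items named by these rules are not reported here.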

Additional observations from a re-analysis of the deposited data

Results flagged for a closer look

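Signal outside the nuclear chromosomes was present in all 3 libraries. Mitochondrial peaks, which the regions above do not use, numbered 1, 2 and 3 in replicates 1, 2 and 3, with a total signal of 7838, 42241 and 41510. In replicate 3 a mitochondrial peak had the highest total signal of the library, while the best mitochondrial peak ranked 3479 in replicate 1 and 886 in replicate 2. Mean coverage in these peaks was 5.01, 6.44 and 5.23 fragments per base, against 3.81, 3.89 and 2.63 in nuclear peaks. Mitochondrial DNA carries no histones. The part of this signal in the other results was not tested.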

How the results depend on the processing

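The median peak reached 6 to 9 overlapping fragments, and replicate 3, whose yield and read length cannot be told apart, limited every count that needed it. No paired analysis was possible because the result comes from no test. Of 53 alternatives, 19 left a value within its tolerance (1.5 times for counts, otherwise 1 SD over the 3 libraries or the binomial interval) and 34 moved it. The SD is of single-library values, which lay far apart. For developmental transcription factors these were 73.5%, 76.7% and 31.5%, with an SD of 25.2 points. A value within its tolerance can therefore still have changed. The causes were not tested, apart from fewer peaks or libraries entering. Without replicate 1 or replicate 2, the pair with replicate 3 gave 842 to 892 regions in place of 3211, 674 to 714 called genes in place of 2136, 30.6% to 31.5% of developmental transcription factors in place of 71.9%, 1.17% of housekeeping and active blood genes in place of 3.11% and 4.56% to 4.83% of CpG-rich promoters in place of 12.5%. Requiring all 3 libraries gave 811 regions, 660 genes, 30.6%, 1.17% and 4.44%. With the same number of top peaks per library there were 678 regions (50.4% with a replicate 3 peak, 83.5% at promoters, median width 10792 bp), 603 genes, 41.6%, 1.17% and 3.82%. With peaks above the median total signal of their library there were 1660 regions (21.4% with a replicate 3 peak, median width 7746 bp) and 1316 genes. That setting also lowered the share of developmental transcription factors to 59.0% and of CpG-rich promoters to 7.94%, both counted as within tolerance. Leaving out peaks of low maximum signal gave 1858 regions. The share of regions with a replicate 3 peak, 25.3%, became 2.27% with a reciprocal overlap of 50% and 28.0% with peaks within 3 kb joined. In each setting in which both were computed, the developmental factors had a larger called share than the housekeeping and active blood genes. Which regions were the 25 best depended on the ranking and on joining peaks. By maximum signal 2 stayed among the 25, by mean signal per base 1 and by summed total signal 11. With peaks joined 8 stayed, and by the mean of the 2 ranks 20 did.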

Other observations

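The highest single coverage in any library was in replicate 2, where a 553 bp peak on chromosome 13 (9011686 to 9012238) reached 76 fragments. The next highest in that library, on chromosome 17 (22877516 to 22878145), reached 27, and the highest in replicates 1 and 3 were 21 and 17 fragments. Most shared regions were simple, with 1 peak in each of replicates 1 and 2 in 2715 of 3211 (84.6%).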
